A study of Mus musculus with 20 samples.

Results

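The regions described here are the 300 windows of the mouse autosomes with the densest histone H3 lysine 27 acetylation (H3K27ac) in liver, away from strong promoters. Chromosomes 1 to 19 were divided into 197005 tiles of 12.5 kb, and the 18189 tiles holding any 1 kb bin with H3K4me3 of at least 4 RPM (reads scaled to a library of 1 M distinct reads) in embryonic stem (ES) cells or liver were left out. Of the 178816 tiles that remained, 166666 held at least 10 reads in 1 library. The 300 with the largest liver H3K27ac minus liver histone H3 signal are 0.180% of those 166666. Liver H3K27ac and liver H3 therefore chose the tiles, and their values there are a description with no test.

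The study mapped chromatin marks by chromatin immunoprecipitation and sequencing (ChIP-seq) in 20 mouse libraries. Liver was represented by 1 library each of H3K27ac, H3K4me1, H3K4me3, H3 and unprecipitated whole cell extract (WCE), made from perfused whole liver that was dissociated, strained and spun at low speed. The labels name no strain, age or number of animals for the liver. ES cells were V6.5, a hybrid line (C57BL/6-129; named 129JAE-C57/B6 in the titles), with 1 library each of H3, H3K4me3 and WCE and 2 each of H3K27ac and p300. The 3 ES libraries of H3K4me1 came from 3 backgrounds: V6.5, the same strain cross carrying the doxycycline-inducible 4F2A transgene, and the inbred C57BL/6 line j21. ES and induced pluripotent stem (iPS) cells had been grown on feeder MEFs and then kept for 1 or 2 passages without them. Neural progenitors (NPCs) (129JAE-C57/B6 derived) were made through embryoid bodies, with a labelled age of 4 days, selection in ITSFn medium and culture with FGF and EGF. They had 1 library each of H3K27ac and the transcription factor Rfx1. Mouse embryonic fibroblasts (MEFs) had 1 library each of H3K4me1 and H3, and the MEF-derived iPS line O6 had 1 of H3K4me1. Every liver, NPC, MEF and iPS value below thus rests on 1 library, and the iPS cells on 1 line.

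H3K27ac is laid down by the acetyltransferases p300 and CBP and marks active enhancers and promoters. H3K4me1 is spread over enhancers whether or not they are active, whereas H3K4me3 marks promoters. Dense, wide stretches of H3K27ac, often called super-enhancers, are known as clusters of enhancers that lie near genes of a cell type's identity. In liver such genes include those for plasma proteins and metabolic enzymes. No gene was assigned to a tile here, since the read positions reach the chromosome ends of an older build than the annotation at hand, and liver marker genes were not used here to check the tissue. For the same reason no base sequence is shown. Coordinates are those of the deposited positions.

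Libraries held 2.45 to 18.2 M reads. Of these, 0.705 M (NPC Rfx1) to 14.5 M (MEF H3K4me1) were distinct by position and strand and were used. Repeated reads made up 72.5% of the Rfx1 library and 70.0% of the ES H3K4me3 library, and at most 20.6% of any other. The liver H3K27ac library had 5.11 M distinct reads and the liver H3 library 4.37 M. Levels are given as RPM per tile, and folds as the RPM of a mark plus 0.5 over that of its background library plus 0.5. The background was liver H3 for liver, MEF H3 for MEF, ES H3 for ES, NPC and iPS histone marks, and ES WCE for p300 and Rfx1. A tile was counted as marked at 2-fold or more.

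The chosen tiles held 7.61% of the liver H3K27ac reads of the kept tiles. Liver H3K27ac ran from 77.5 RPM through a median of 100.9 RPM to 309.9 RPM among them, against a median of 0.587 RPM over all kept tiles. It was 2-fold or more over H3 in all 300, as the rule fixes, and in 4.13% of all tiles. The difference from H3 was 300.3 RPM at rank 1, 133 RPM at rank 50, 108.5 RPM at rank 100, 72.74 RPM at rank 300 and 72.51 RPM at rank 301. It then declined to 54.8 RPM at rank 600 and 18.3 RPM at rank 3000. The curve had no step at rank 300, so the chosen tiles are the top of a continuous range and not a separate class. Just inside the limit, the tiles of ranks 298 to 300 (chr15:85537501-85550000, chr12:104362501-104375000 and chr11:88662501-88675000) had liver H3K4me1 folds of 6.35, 5.84 and 13.2. Just outside it, the tiles of ranks 301 to 303 (chr13:64237501-64250000, chr5:124275001-124287500 and chr15:59612501-59625000) had folds of 6.88, 19.5 and 3.85.

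**Figure D1:**
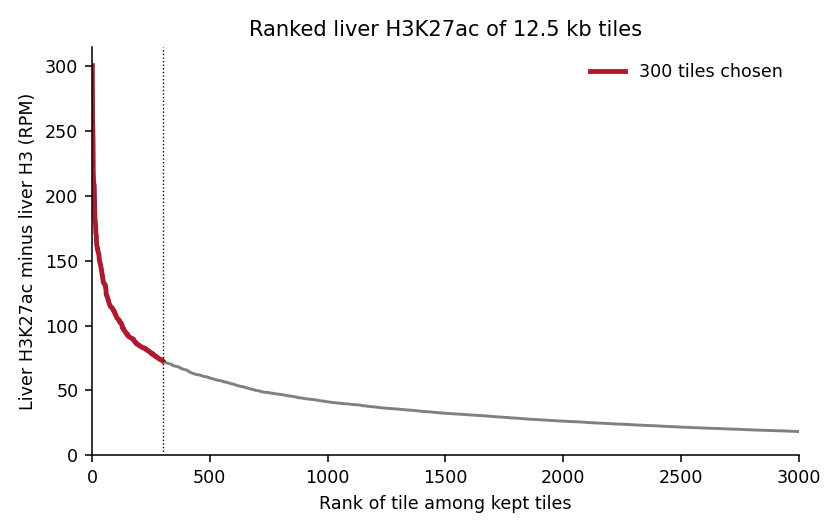
Liver H3K27ac minus liver H3 (RPM per 12.5 kb tile, y axis) against the rank of the tile (x axis, the first 3000 ranks), with the 300 chosen tiles in red and the limit as a dotted line. The curve falls from 300.3 RPM at rank 1 to 72.74 RPM at rank 300 and goes on smoothly past the limit.

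The limit on H3K4me3 shaped this set. Among the tiles left out, 1522 had a liver difference at or above that of rank 300, the largest at 463.9 RPM, and 7 of these were left out for ES H3K4me3 alone. The densest H3K27ac of liver thus lay mostly in tiles with strong H3K4me3, which are not part of the set. Weaker H3K4me3 remained: 179 of the 300 held a 1 kb bin of 2 to under 4 RPM in liver or ES cells. Over all 166666 kept tiles 10782 held such a bin. Over the whole tile, liver H3K4me3 had a median of 7.47 RPM (1.74 to 27.6), against 0.622 RPM over all tiles, and its fold over H3 had a median of 0.956.

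The background libraries were also higher in these tiles than elsewhere. The median was 7.54 RPM in liver H3 against 5.03 RPM over all tiles, 9.47 RPM in liver WCE against 4.74 RPM, 7.40 RPM in ES H3 against 5.11 RPM, and 8.41 RPM in MEF H3 against 4.76 RPM. Liver WCE was 2-fold over liver H3 in 8 chosen tiles, with 1.29% of all tiles at that level. The part of this difference in the RPM levels of the marks was not tested. Folds set each mark against such a library.

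H3K4me1, which the choice of tiles did not use, was high in all of them in liver. Its level ran from 24.6 RPM through a median of 69.8 RPM to 200.4 RPM, against a median of 0.945 RPM over all kept tiles. It was at least 2-fold over H3 in 300 of 300 chosen tiles, and in 6.73% of all tiles. The fold had a median of 8.71 and a range of 2.98 to 20.2, and the next 300 tiles by rank were likewise all marked, at a median of 7.31. Whole liver holds several cell types, and fewer cells with a mark and less mark per cell cannot be told apart in these libraries. The chosen tiles held 3.66% of the liver H3K4me1 reads of the kept tiles. Spearman's rho between the H3K27ac and H3K4me1 folds was 0.33 over the 300 tiles and 0.72 over all tiles. Both folds share the H3 library, and the 300 cover only the top of the H3K27ac range that chose them, so the values cannot be set against each other.

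The 10 densest tiles show the levels. The rank 1 tile, chr15:58812501-58825000, had 309.9 RPM of H3K27ac, 132.9 RPM of H3K4me1, 9.60 RPM of H3 and 10.5 RPM of WCE in liver. The rank 3 tile, chr9:48487501-48500000, had 264.5 RPM of H3K27ac and 81.1 RPM of H3K4me1 over 10.97 RPM of H3. The 10 folds of H3K4me1 over H3 ran from 5.25 (rank 10, chr4:149625001-149637500) to 14.4 (rank 9, chr8:129712501-129725000). The highest folds of the set, both 20.2, belonged to tiles of lower rank, chr17:86675001-86687500 (rank 186) and chr11:117125001-117137500 (rank 92). The lowest, 2.98 and 3.30, were at chr3:146500001-146512500 (rank 135) and chr14:40025001-40037500 (rank 267), where 105.8 and 83.9 RPM of H3K27ac lay with 28.9 and 24.6 RPM of H3K4me1.

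**Figure D2:**
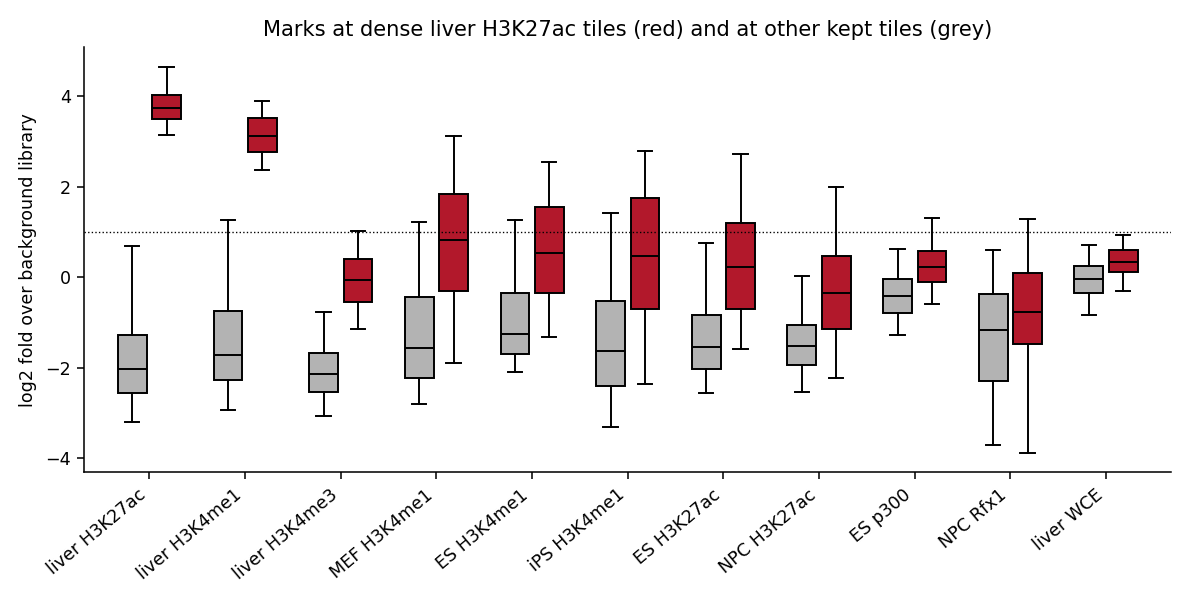
Log2 fold of each mark over its background library (y axis) for the chosen tiles (red) and the other kept tiles (grey): boxes span the quartiles with the median as a line, whiskers the 5th to 95th percentile, and the dotted line is 2-fold. Liver H3K27ac was used to choose the tiles, liver H3K4me1 is above 2-fold in all 300, and the marks of the other cells spread across the line.

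Inside the tiles, the acetylation was broad. Of the 25 bins of 500 bp in a tile, a median of 19 (9.5 kb) reached 1 RPM of H3K27ac, with a range of 8 to 25, and a median of 18 (9.0 kb) reached 1 RPM of H3K4me1. Both fell into a median of 2 separate stretches. The highest H3K27ac bin held a median of 13.2% of the tile's reads, or 14.7 RPM. Liver H3 reached 1 RPM in a median of 0 bins and liver WCE in 1.

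H3K27ac and H3K4me1 followed each other along the tiles. Spearman's rho over the 25 bins was positive in 300 of 300 tiles with a median of 0.83, while that of H3K27ac with liver H3 had a median of 0.17, with liver WCE 0.23 and with liver H3K4me3 0.67. The highest H3K4me1 bin lay within 1 kb of the highest H3K27ac bin in 177 tiles (59.0%). For liver H3 and WCE this held in 79 (26.3%) and 81 tiles, and for MEF H3K4me1 in 90 (30.0%). In the highest H3K27ac bin, liver H3 and WCE had medians of only 0.457 and 0.499 RPM, against 6.88 RPM for liver H3K4me1. The part of such low counts in the rho and bin positions of H3 and WCE was not tested. The highest liver H3K4me3 bin was within 1 kb in 176 tiles (58.7%), so the remaining H3K4me3 of these tiles was centred on the acetylation as often as H3K4me1 was.

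Averaged around the highest H3K27ac bin, H3K27ac was 15.3 RPM per 500 bp at the centre and 2.70 and 3.13 RPM at 5 kb to either side. H3K4me1 was 7.04 RPM at the centre and 2.09 and 2.26 RPM at the edges, so the mean profile had no central dip at this bin size. In 142 tiles (47.3%) the H3K4me1 of the centre bin was below its highest value within 1.5 kb. That value is the highest of several bins, so the count cannot show a dip. The median was 6.88 RPM at the centre and 6.34 RPM for the highest flanking bin. The centre was chosen on H3K27ac, and liver H3 was also higher there, at 0.456 RPM against 0.302 and 0.307 RPM at the edges. MEF H3K4me1 had a mean of 1.93 RPM at the same centre and 0.939 and 0.914 RPM at the edges.

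**Figure D3:**
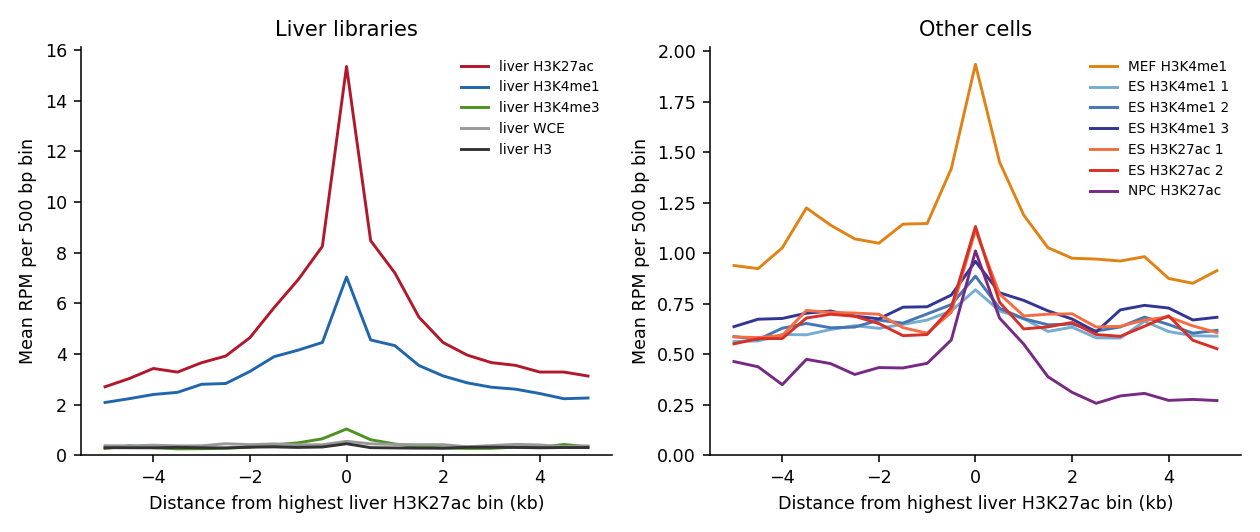
Mean signal (RPM per 500 bp bin, y axes of different scale) against the distance from the highest liver H3K27ac bin of each chosen tile (kb, x axis), for the liver libraries (left) and the other cells (right). The centre bin was chosen on liver H3K27ac; liver H3K4me1 peaks there at 7.04 RPM and MEF H3K4me1 at 1.93 RPM.

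Some of the tiles joined into longer domains. The 300 tiles formed 255 separate domains, of which 224 were 1 tile, 22 were 2, 6 were 3, 2 were 4 and 1 was 6 tiles long. The 31 runs of 2 or more held 76 tiles. A tile break can also split a domain, or leave its remainder below the limit. The longest run, chr15:58800001-58875000 (75 kb), held the tiles of ranks 1, 2, 29, 61, 112 and 192. Its liver H3K4me1 folds ran from 7.88 to 13.3, and ES H3K4me1 was 2-fold or more in each of its 6 tiles, at 2.67 to 4.73. NPC H3K27ac was 2-fold in 2 of the 6, at 3.35 and 3.90. The run at chr2:167512501-167562500 (50 kb; ranks 4, 34, 44 and 113) had a different pattern, with ES H3K4me1 folds of 0.663 to 1.41 and MEF H3K4me1 folds of 2.91 to 4.68. In the run at chr19:4550001-4600000 (50 kb; ranks 26, 81, 215 and 250) neither ES mark reached 2-fold in any tile. There the rank 215 tile alone had NPC H3K27ac, 36.6 RPM or 7.77-fold.

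The tiles lay on every autosome, from 5 on chromosome 3 (0.442 per 1000 tiles) to 29 on chromosome 6 (2.79 per 1000). They lay close to the tiles left out for H3K4me3. A tile with liver H3K4me3 adjoined 156 of them (52.0%), against 12.1% of all tiles, and lay within 50 kb of 268 (89.3%, against 32.1%). A tile with H3K4me3 in liver but not in ES cells adjoined 88 (29.3%, against 3.69%). The next 300 ranks were alike, with 150 adjoining liver H3K4me3. Chosen tiles that adjoined liver H3K4me3 had ES H3K4me1 in 74 of 156 (47.4%), and those that did not in 38 of 144 (26.4%). Over all tiles these shares were 21.0% and 5.01%, so they differed in the same direction. MEF H3K4me1 was marked in 75 (48.1%) and 58 (40.3%) of the chosen tiles, and in 14.5% and 5.41% of all tiles. For NPC H3K27ac the chosen tiles had 25 (16.0%) and 27 (18.8%), and all tiles 3.61% and 1.39%.

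In ES cells most of the tiles were below 2-fold for both enhancer marks, though a smaller share than over all tiles. ES H3K27ac was 2-fold or more in 91 tiles (30.3%), beside 3.82% of all tiles, and ES H3K4me1 in 112 (37.3%), beside 6.94%. The next 300 tiles gave 87 and 112. The median level in the chosen tiles was 8.67 and 8.40 RPM in the H3K27ac libraries, and 10.4 (V6.5), 10.4 (4F2A transgene) and 12.6 RPM (C57BL/6 line) in the H3K4me1 libraries. The median folds of 1.16 and 1.44 lay below 2 but above the 0.346 and 0.421 of all tiles. Single tiles reached 26.2 and 9.90. A tile below 2-fold can thus still hold more of a mark than most tiles. The H3K27ac libraries called 84 tiles in common, 12 in the first alone and 6 in the second alone.

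Both ES marks were 2-fold or more in 83 tiles (27.7%, against 3.29% of all tiles) and H3K4me1 alone in 29 (9.67%, against 3.65%). H3K27ac alone was marked in 8 (2.67%, against 0.525%) and neither in 180 (60.0%, against 92.5%). Liver H3K27ac had medians of 107.8, 102.3, 108.6 and 98.4 RPM in these classes, in that order. Liver H3K4me1 had median folds of 10.9, 9.09, 10.2 and 8.0. In the 180 tiles with neither, ES H3K4me1 had a median fold of 0.873, and the ES H3K27ac libraries 0.793 and 0.644. p300, a coactivator bound at active enhancers, was measured only in ES cells. The second of its libraries is titled p300 and used the same antibody, but its description reads p301. Over ES WCE it had median folds of 1.85 and 1.59 in the 2 libraries for tiles with both marks, and 1.04 and 0.953 for tiles with neither. It reached 2-fold in 36 and 26 of the 83 tiles with both marks and in 2 and 0 of the 180 with neither. The p300 shares of these classes over all tiles were not counted. Spearman's rho between the ES H3K27ac and p300 folds was 0.82 over the 300 tiles and 0.69 over all tiles, so the link was not particular to this set. Over all 300, the mean p300 fold was at least 2 in 28, beside 2.13% of all tiles.

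The tile with the most ES H3K27ac, chr6:91675001-91687500 (rank 30), had 205.0 and 191.3 RPM in the ES libraries over 7.09 RPM of ES H3, and 162.2 RPM in liver. Its ES p300 was 75.5 and 63.5 RPM over 10.7 RPM of WCE, and its ES H3K4me1 62.8, 75.6 and 63.3 RPM. In RPM, both ES values were above the liver value, while NPC H3K27ac was 4.03 RPM, below the ES H3 level. The tests below used scaling factors of 1.36 and 1.13 for the ES H3K27ac libraries and 0.696 for that of liver. Such scaling lowers the ES levels and raises the liver level, so the order was read in RPM alone. The rank 16 tile, chr4:137037501-137050000, had the highest ES H3K4me1 fold, 9.90, with 72.2, 90.5 and 85.8 RPM, beside 104.6 RPM in liver and 15.0 RPM in MEF. By contrast, the rank 3 tile had 4.39 and 2.94 RPM of ES H3K27ac over 6.15 RPM of ES H3, and 4.06, 3.36 and 4.47 RPM of ES H3K4me1, against the 264.5 and 81.1 RPM of these marks in liver.

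The same choice was applied to ES and NPC H3K27ac, where 300 tiles are 0.180% of all tiles. Of the 300 dense liver tiles, 9 (3.00%) were also among the 300 dense ES tiles, 8 (2.67%) among the 300 dense NPC tiles, and 2 in both. The top 3000 ES tiles, 1.80% of all tiles, took in 55 of the liver tiles (18.3%). Both shares were above those of all tiles, and most dense liver tiles were in neither other set. The dense liver tiles had liver H3K4me1 in all 300, and the dense ES tiles in 125.

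**Figure D4:**
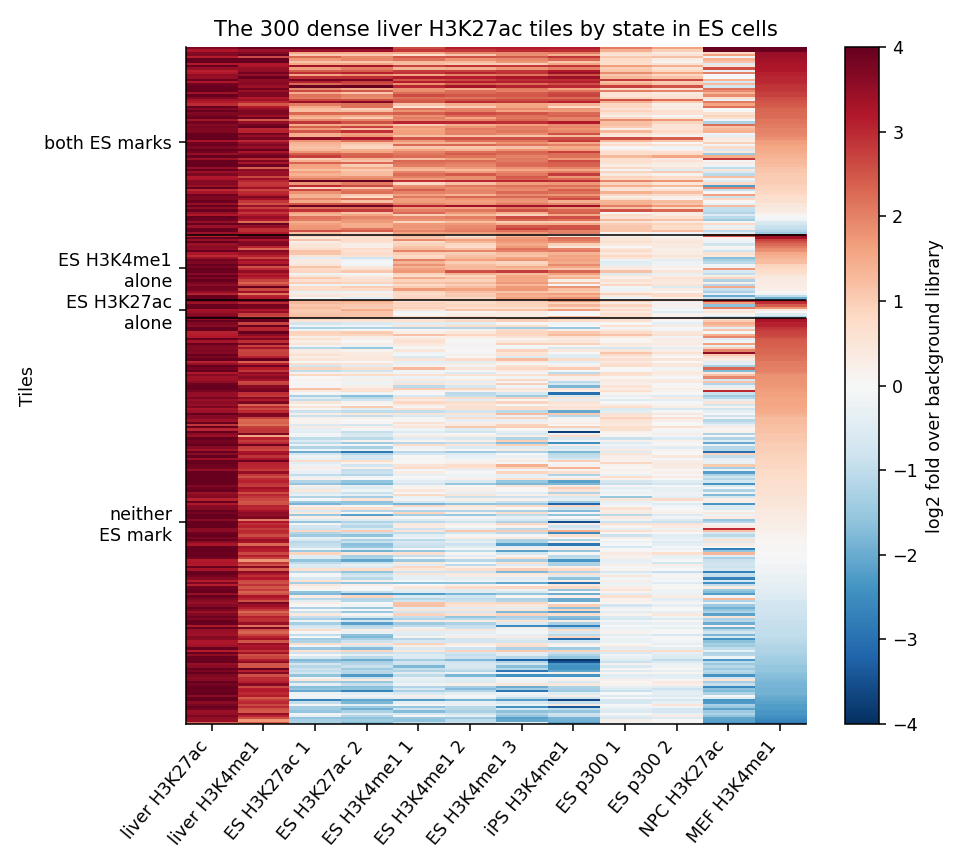
Log2 fold over the background library (colour, limited to 4 in either direction) of each mark (columns) in the 300 chosen tiles (rows), grouped by the ES marks at 2-fold or more and ordered by MEF H3K4me1 within a group. In the block of 180 tiles with neither ES mark, the median liver fold is 13.4 for H3K27ac and 8.0 for H3K4me1. In the 83 with both it is 13.1 and 10.9. The block of 180 holds 56 tiles with MEF H3K4me1 and 20 with NPC H3K27ac at 2-fold.

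The level of H3K4me1 was then compared between liver and ES cells with limma-trend, a linear model on log2 CPM (counts scaled to library size) fitted to 145128 tiles. The 3 ES libraries supply the spread, and the single liver library is assumed to vary as they do. The fit gave infinite prior degrees of freedom. Each SE is therefore the one typical of tiles of similar mean level, and not the spread of that tile's own ES libraries. Liver was higher than ES cells in 258 of the 300 tiles (86.0%), beside 15.9% of all tiles tested, and lower in 0, beside 14.6% (Benjamini-Hochberg adjusted p under 0.05). At an unadjusted p under 0.05 the counts were 280 and 0. The median log2 difference was 3.39 (1.00 to 5.85; median SE 0.65), against -0.08 over all tiles. The liver RPM exceeded that of every ES library in 300 of 300 tiles, which held for 19.2% of all tiles. All 42 tiles that missed the threshold had ES H3K4me1 at 2-fold or more, with log2 differences of 1.00 to 1.99. The rank 16 tile above had the smallest difference, 1.00 (SE 0.86; limma adjusted p = 0.434).

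Single tiles spanned that range. For the rank 3 tile the liver minus ES difference was 4.92 (SE 0.55; limma adjusted p = 7.78e-17), and for the rank 267 tile, which had little H3K4me1 for this set, it was 4.28 (SE 0.49; limma adjusted p = 5.07e-16). The rank 1 tile had 42.5, 41.9 and 36.4 RPM of H3K4me1 in the ES libraries and 132.9 RPM in liver. Its log2 difference was 2.38 (SE 0.81; limma adjusted p = 0.014), with a limma adjusted p = 0.0819 without the 4F2A library. The rank 30 and rank 92 tiles had 1.40 (SE 0.89) and 1.99 (SE 0.95) and did not pass, with limma adjusted p = 0.247 and limma adjusted p = 0.0985. Without the C57BL/6 ES library, both passed, at limma adjusted p = 1.52e-08 and limma adjusted p = 4.60e-19. The share of the set called higher was then 100%, and without the 4F2A library 76.0%. With no filter on low tiles, limma called 0 of the 300 higher than ES cells (213 at an unadjusted p under 0.05) and 0 higher than MEF (140 unadjusted), and the other comparisons below fell to between 0 and 1.67% of the tiles.

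H3K4me1 of MEF, a connective tissue cell type grown in culture, was 2-fold or more over MEF H3 in 133 tiles (44.3%), beside 6.50% of all tiles, at a median fold of 1.77 and a median level of 15.0 RPM (0.208 to 240.1). The next 300 tiles gave 114. The highest fold, 17.6, was at the rank 92 tile, with 240.1 RPM in MEF and 184.9 RPM in liver. The next was 15.4, at chr15:77637501-77650000 (rank 146), with 195.3 RPM in MEF and 121.1 RPM in liver. The lowest levels included 0.277 RPM at the rank 267 tile.

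Liver H3K4me1 was higher than MEF H3K4me1 in 167 of the 300 tiles (55.7%), beside 11.2% of all tiles tested, and lower in 0, beside 15.0%. At an unadjusted p under 0.05 the counts were 191 and 0. Here each side is 1 library, and the spread is again that of the ES libraries. The median log2 difference was 2.19 (-0.67 to 6.52), and the liver RPM was above the MEF RPM in 285 of the 300. The rank 146 tile had the lowest value, -0.67 (SE 1.12; limma adjusted p = 0.730), and the rank 267 tile had 5.79 (SE 0.60; limma adjusted p = 8.04e-19). Without the C57BL/6 ES library the share higher was 82.0%, and without the 4F2A library 46.3%.

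MEF was higher than ES cells in 103 of the tiles, beside 20.9% of all tiles, and lower in 20, beside 15.2%, with a median log2 difference of 1.09 (-3.21 to 5.13). This comparison and that of liver with ES cells share the ES libraries. The rank 4 tile, chr2:167537501-167550000, is an example of the former, with 40.7 RPM in MEF, 98.4 RPM in liver and 4.06, 5.25 and 7.82 RPM in ES cells (MEF minus ES 3.45, SE 0.62; limma adjusted p = 4.17e-07). The counts depended on scaling and on 1 library. With scaling by library size alone, the median over all tiles moved from -0.11 to -0.64 and the share of the called tiles that were higher from 83.7% to 63.2%. Without the C57BL/6 ES library, 61.3% of the 300 were called higher and 12.7% lower, in place of 34.3% and 6.67%, and without the 4F2A library 4.33% were called lower. For liver against ES cells, library size scaling moved the median over all tiles from -0.08 to -0.62 and the share higher among all called tiles from 52.2% to 30.5%, while among the chosen tiles it stayed at 100%.

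iPS cells are somatic cells, here MEFs, that were returned to a pluripotent state. Their H3K4me1 was 2-fold or more in 115 tiles (38.3%), beside 7.94% of all tiles, and 105 of these (91.3%, against 77.7% of all tiles marked in iPS cells) were also marked in ES cells. There were 7 tiles marked in ES cells alone (2.33%, against 0.772% of all tiles) and 10 in iPS cells alone (3.33%, against 1.77%). Of the 60 tiles marked in MEF but not in ES cells, 6 were marked in iPS cells, with median folds of 3.47 in MEF, 1.16 in iPS and 1.24 in ES cells. Of the 39 marked in ES cells but not in MEF, 36 were marked in iPS cells, with medians of 3.17 in ES cells, 3.49 in iPS and 1.28 in MEF. The shares marked in iPS cells, 10.0% and 92.3%, lay near those of the same classes over all tiles, 6.57% of 7399 and 87.6% of 8134, so the pattern was also that of all tiles. Both iPS and ES folds use the ES H3 library, which MEF folds do not. Spearman's rho with ES H3K4me1 over the 300 tiles was 0.96 for iPS and 0.54 for MEF, and 0.82 and 0.49 over all tiles.

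Against the ES libraries, iPS H3K4me1 was higher in 0 tiles, beside 0.0779% of all tiles, and lower in 12, beside 6.39%. limma gave 1 and 22 at an unadjusted p under 0.05, and limma-voom, a variant that weights counts by precision, called 0 in either direction. The median log2 difference was 0.18 (-3.93 to 1.23; median SE 0.65), so differences well over 2-fold could pass unseen. The lowest was the rank 3 tile, with 0 iPS reads, which allows up to 1.29 RPM at the depth of 2.32 M distinct reads, against 3.36 to 4.47 RPM in ES cells. The count rested on 1 ES library. Without the C57BL/6 line, 23.7% of the tiles were called higher in iPS cells and 10.0% lower. The share of called tiles that were higher was then 70.3% in the set and 22.8% over all tiles. Without the V6.5 or the 4F2A library 1.67% and 2.00% of the set were called lower. Library size scaling moved the median over all tiles from -0.17 to -0.35 and gave 1.00% higher and 9.33% lower.

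NPC H3K27ac was 2-fold or more over ES H3 in 52 tiles (17.3%), beside 1.66% of all tiles, and in 18 of the next 300. No NPC background library was used here. The median level was 5.55 RPM and the range 0.432 to 220.6 RPM. The top tiles were those of rank 146, with 220.6 RPM in NPC, 99.6 and 97.3 RPM in ES cells and 104.7 RPM in liver, and of rank 92, with 186.5 RPM in NPC, 146.9 and 178.6 RPM in ES cells and 119.9 RPM in liver. In RPM, every ES and NPC value at rank 92 was above the liver value, and at rank 146 only that of NPC was. The scaling used in the tests lowers the ES levels and raises the liver level, so this order too was read in RPM alone. H3K27ac was marked in both ES cells and NPCs in 29 tiles (9.67%, against 0.402% of all tiles), in ES cells alone in 62 (20.7%, against 3.42%), in NPCs alone in 23 (7.67%, against 1.26%) and in neither in 186 (62.0%, against 94.9%). Both folds use the ES H3 library.

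Compared with the ES libraries, NPC H3K27ac was higher in 68 tiles, beside 18.6% of all tiles tested, and lower in 97, beside 20.2% (limma, 111180 tiles). The median log2 difference was -0.23 (-5.15 to 4.15), near the 0.00 of all tiles. The share higher, 22.7%, was close to that of all tiles and the share lower, 32.3%, above it. The next 300 tiles by rank differed, with 35 called higher and 130 lower. The spread here comes from the 2 ES libraries alone. As for H3K4me1, each SE is that of tiles of similar mean level and not the tile's own, so small p-values do not rest on the replicates of that tile. The rank 30 tile fell the most, by 5.15 on the log2 scale (SE 0.36; limma adjusted p = 1.73e-44), and the rank 215 tile, chr19:4550001-4562500, rose the most, by 4.15 (SE 0.28; limma adjusted p = 1.39e-47). With library size scaling the share of called tiles that were higher went from 41.2% to 23.5%, with 14.7% of the 300 called higher, and the median over all tiles went from 0.00 to -0.34.

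**Figure D5:**
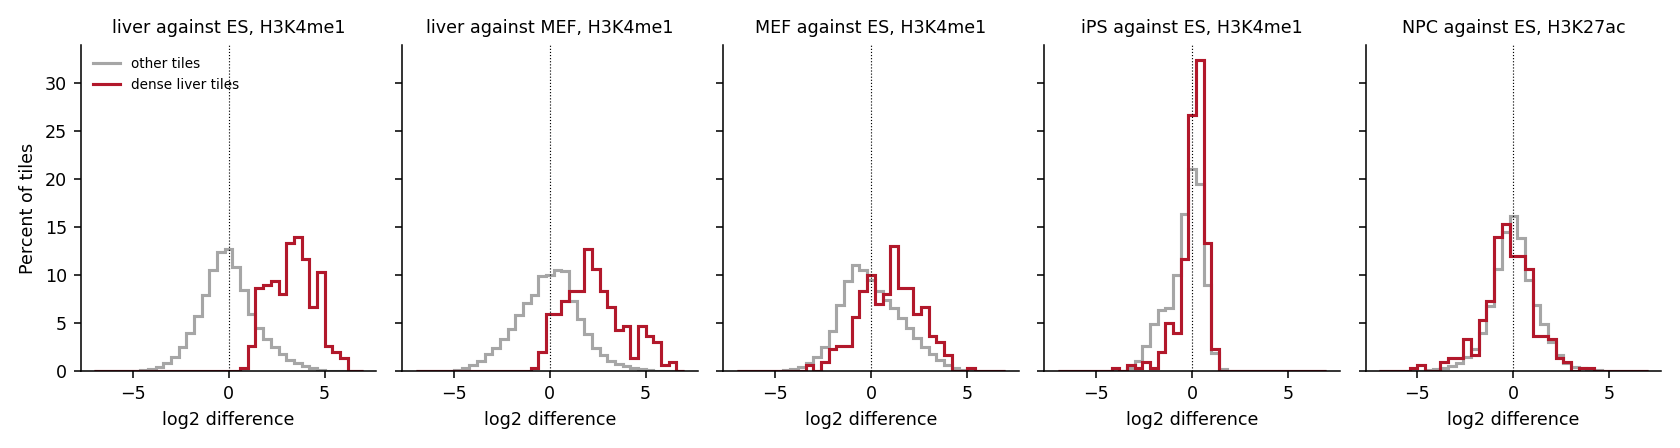
Distribution of log2 differences (x axis, percent of tiles on the y axis) for the chosen tiles (red) and the other tiles (grey) in each of the 5 comparisons; the dotted line marks 0. The chosen tiles lie above 0 throughout in liver against ES cells (1.00 to 5.85), mostly above 0 against MEF, and around 0 for iPS against ES cells and NPC against ES cells.

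Counting ES H3K27ac, ES H3K4me1, NPC H3K27ac, MEF H3K4me1 and iPS H3K4me1 together, 118 tiles (39.3%) had none of the 5 at 2-fold, against 86.2% of all tiles, and 22 (7.33%) had all 5, against 0.232%. NPC Rfx1, a factor of another kind, reached 2-fold over ES WCE in 22 tiles, beside 2.25% of all tiles. For the 5 histone measures, the rest were spread between, with 48, 33, 37 and 42 tiles at 1, 2, 3 and 4 marks. Over all tiles these classes held 6.54%, 3.14%, 2.82% and 1.10%. The rank 92 tile is in the last class of all 5, and the rank 267 tile in the class of none, with 2.14 and 2.00 RPM of ES H3K27ac, 1.01 RPM of NPC H3K27ac, 0.277 RPM of MEF H3K4me1 and 1.29 RPM of iPS H3K4me1.

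The tiles were also split by weak H3K4me3. In the 179 tiles with a weak H3K4me3 bin, ES H3K27ac was marked in 39.1%, ES H3K4me1 in 44.7%, NPC H3K27ac in 21.2%, MEF H3K4me1 in 50.3% and iPS H3K4me1 in 46.4%. In the 121 tiles without one these shares were 17.4%, 26.4%, 11.6%, 35.5% and 26.4%. All tiles split in the same way had 21.0%, 29.7%, 6.18%, 19.5% and 32.0% with such a bin, and 2.63%, 5.37%, 1.35%, 5.60% and 6.27% without. The bin may lie in liver or in ES cells, so the classes are in part chosen on the ES state. With the liver bin alone, ES H3K27ac was marked in 37.0% of 162 tiles with it and 22.5% of 138 without, and NPC H3K27ac in 18.5% and 15.9%. Liver H3K4me1 was marked in every tile of both classes, at median folds of 9.23 and 8.13. When the limit on H3K4me3 was lowered to 2 RPM and 300 tiles were chosen again, only 121 of the first 300 were still in the set. NPC H3K27ac was marked in 7.67% of the new set, beside 1.35% of all tiles under that limit. In the first set it was 17.3%, beside 1.66%. The part of weak H3K4me3 in the marks of the other cells was not tested further.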

How the data were processed

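The data are 20 ChIP-seq libraries. Per the file headers and values, the authors deposited the signed genome position of each mapped read, with no count or signal per region; sequences were prepared from fragments of about 500 bp amplified by PCR, per the labels' protocols. No aligner or genome build is named in the sources used here. Reads were counted once per position and strand, moved 100 bp to the fragment centre, and given as RPM of the distinct reads. Tiles, background folds (0.5 RPM added) and the 2-fold limit are as in the report. Differences were tested in R 4.3.3 with limma 3.58.1 (limma-trend; log2 CPM, prior count 2, scaling by the trimmed mean of M values, tiles with at least 10 reads in 1 library; Benjamini-Hochberg over all tiles tested, 0.05); the code was tested on simulated counts. Replicate libraries differed by more than sampling noise (chi-square per degree of freedom 1.56 to 4.27). The ES libraries of H3K4me1 came from different lines, so their spread also holds differences of strain and transgene. For ES H3K27ac and p300, nothing says that the replicates came from separate cultures, and their spread may be technical. P-values measure only the spread between libraries.

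Groups follow the sample titles. The tiles, tests and lists were chosen with earlier results of these data known. Tiles are named by rule: the 10 largest differences, the 3 longest runs, the 2 highest of each mark, the 2 lowest of liver H3K4me1 and the 3 on either side of the limit; the rank 215 and rank 267 tiles were picked for further comparisons after their values were seen. Alternatives changed the choice of tiles, the background, the fold, scaling, filter, prior count, tool and depth, and left out ES libraries in turn. Python 3.11.15 was used for counting.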

Additional observations from a re-analysis of the deposited data

Results flagged for a closer look

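Liver and MEF differed in how far their H3K4me1 lay from that of ES cells. The test of that difference, which is liver against MEF, called 167 of the 300 tiles higher in liver, beside 11.2% of all tiles tested. It called 0 lower, beside 15.0%. The next 300 tiles by rank were alike, with 171 called higher. Both changes use the same 3 ES libraries, and liver and MEF have 1 library each.

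Rfx1, a transcription factor measured in NPCs and used in no comparison of the report, was at least 2-fold over ES WCE in 22 of the 300 tiles, beside 2.25% of all tiles. The median fold was 0.587. The highest were 6.67 at chr2:27562501-27575000 (rank 117; 80.9 RPM against 11.7 RPM in ES WCE) and 5.56 at chr4:117762501-117775000 (rank 170; 68.1 RPM against 11.8 RPM). At the rank 117 tile liver WCE was also 2.53-fold over liver H3. The library held 0.705 M distinct reads, its background came from other cells, and the part of depth and background in these values was not tested.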

How the results depend on the processing

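Values here are percent of the chosen tiles. Liver H3K4me1 was marked in 99.7% to 100% under every fold, background, H3K4me3 and choice alternative. With no filter on low tiles, limma called 0 higher for liver against ES cells, 0 for liver against MEF, 0 higher and 0 lower for MEF against ES cells, 0 lower for iPS, and 1.00 higher and 1.67 lower for NPC against ES cells; the cause was not tested. With at least 1 read in 1 library, chosen after seeing the data, liver was higher than ES cells in 68.3 and than MEF in 34.7, MEF lower than ES cells in 2.00, NPC higher in 10.7 and iPS lower in 1.33. With library size alone, MEF was lower in 22.7, NPC higher in 14.7, iPS higher in 1.00 and lower in 9.33. Thinning to the shallowest library gave 14.7 for MEF lower and 0 for iPS lower, and limma-voom 0 for iPS lower. iPS was lower in 1.33 of 150 tiles and in 2.33 with an H3K4me3 limit of 8 RPM. At a limit of 2 RPM, where 121 of the 300 tiles stayed in the set, NPC H3K27ac was marked in 7.67. At 3-fold, ES H3K27ac was marked in 17.7 and NPC H3K27ac in 9.0.

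Leaving out 1 ES H3K4me1 library gave 76.0 to 100 for liver higher than ES cells, 46.3 to 82.0 higher and 0 to 0.333 lower for liver against MEF, 25.7 to 61.3 higher and 4.33 to 12.7 lower for MEF against ES cells, and 0 to 23.7 higher and 1.67 to 10.0 lower for iPS; ES H3K4me1 was marked in 33.7 to 38.0, and ES H3K27ac in 30.0 to 32.0 with 1 of its 2 libraries. Moving the tile edges by 0.5 of a tile left 190 of the 300 tiles overlapped by a chosen tile, and 95.3 were then higher in liver than in ES cells. In all, 247 values of the compared shares stayed within 1.5 times and 31 did not. For iPS against ES cells the balance of calls turned among the chosen tiles. The share of called tiles that were higher was 0 as reported and 70.3 without the C57BL/6 ES library. Over all tiles that share went from 1.20% to 22.8%, so most calls there stayed lower. With library size alone the median log2 difference of the chosen tiles went from 0.18 to -0.015. No paired analysis was possible because the compared groups have 1 library on 1 side and share no replicate numbers that link them. The NPC test without 1 ES H3K27ac library could not be fitted, as no residual degrees of freedom remain, and MEF WCE was not used here. Depth limits iPS (2.32 M distinct reads) and Rfx1 (0.705 M) the most.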
